A study of Mus musculus with 2 samples.

Results

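Genes of the endothelial barrier, of fenestrae and of caveolae were followed in single cells of the mouse dental pulp, the soft tissue of vessels, nerves and mesenchyme inside the tooth. The 9 genes were taken by symbol from the 31053 genes of the deposited tables, and all 9 were present in both libraries: Plvap, Cav1, Cavin1, Cavin2, Cldn5, Cdh5, Pecam1, Esam and Tjp1. Vessel walls let solutes and cells through by several routes. Fenestrae are pores through thin endothelium, closed by a diaphragm built from PLVAP, and caveolae are flask-shaped pits of the cell membrane shaped by caveolins and cavins. Between neighbouring cells, tight junctions hold claudins anchored on scaffold proteins such as ZO-1, and adherens junctions hold VE-cadherin, beside which PECAM1 and ESAM sit along the lateral border.

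The study compared 1 library from Vegfr2 knockout mice, in which the series title places the knockout in the endothelium, with 1 library from control mice, both of the C57BL/6 strain at postnatal day 12 and given no special treatment. Vegfr2, encoded by Kdr, is the main signalling receptor of vascular endothelial growth factor A, which is known to increase vascular permeability and to maintain fenestrated capillaries. The allele, the Cre driver and the number of animals behind each library are not given in the sources used here. Pulp was dissociated with enzymes, cells that excluded the dead-cell stain propidium iodide were sorted, and 10x Chromium 3' libraries were made. With 1 library a genotype no difference has a replicate check, and nothing was tested. Every interval given is an exact 95% interval for counting error alone, and a 1.5-fold ratio is used as a size, not as a call.

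The deposited tables held 17277162 unique molecular identifiers (UMIs, each counting 1 captured transcript molecule) on 2563 barcodes in the knockout library and 35918862 UMIs on 3487 barcodes in the control library. Filtering left 1679 knockout cells (median 8293 UMIs) and 2309 control cells (median 12198 UMIs), which formed 22 clusters, found without the 9 genes, a wider list of barrier genes and Kdr, and clusters were named from fixed markers. Endothelial-like cells numbered 141 in the knockout library (8.40% of kept cells, median 5961 UMIs) and 405 in the control library (17.5%, median 9880 UMIs). All 14 endothelial markers were detected in at least 10% of these cells in both libraries, and their summed level was 9584 CPM in knockout and 9555 CPM in control cells, where CPM are UMIs scaled to the UMI total of the class and written as counts per 1000000. Kdr stood at 650 CPM in knockout and 1054 CPM in control endothelial-like cells, but 3' tags check nothing about a deletion further upstream. Markers of other cell types in endothelial-like cells summed to 194 CPM in knockout and 55.8 CPM in control for pericytes (7 and 6 of 9 markers seen, with Vtn and Kcne4 at 0 in both), to 153 CPM in knockout and 35.4 CPM in control cells for smooth muscle, and to 246 CPM in knockout and 324 CPM in control cells for glia. They summed to 763 CPM in knockout and 1029 CPM in control for pulp mesenchyme, to 101 CPM in knockout and 53.3 CPM in control for macrophages or monocytes, and to 72.1 CPM in knockout and 544 CPM in control for cycling cells. Of 7 lymphatic endothelial markers, 5 were seen in knockout cells (57.9 CPM in all) and 6 in control cells (92.5 CPM), with Ccl21a at 0 in both. Apart from removal of cells with pericyte, smooth muscle, glial or macrophage markers, the part of these markers in the results was not tested.

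Promoters are shown for 3 genes that the results turn on, because the tight junction gene, the caveolin and the cavin differed in their pattern over vessel types. The RefSeq promoter table of build GRCm38.p6 held 5 of the 9 genes, and Plvap was not among them. Each line gives the 250 bases before the annotated start, read 5′ to 3′ on the gene's strand, which is the plus strand for all 3. Capitals mark the core of the motif bound by ETS factors, GGAA, on either strand (TTCC on the other). The windows are chr16:18776597-18776846 for Cldn5, chr6:17306085-17306334 for the first of 2 Cav1 starts, and chr1:51288876-51289125 for Cavin2.
Cldn5: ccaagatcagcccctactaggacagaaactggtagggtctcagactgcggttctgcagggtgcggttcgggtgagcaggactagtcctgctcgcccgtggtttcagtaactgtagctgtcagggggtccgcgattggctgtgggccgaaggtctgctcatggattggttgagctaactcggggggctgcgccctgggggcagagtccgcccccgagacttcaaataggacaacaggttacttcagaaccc
Cav1: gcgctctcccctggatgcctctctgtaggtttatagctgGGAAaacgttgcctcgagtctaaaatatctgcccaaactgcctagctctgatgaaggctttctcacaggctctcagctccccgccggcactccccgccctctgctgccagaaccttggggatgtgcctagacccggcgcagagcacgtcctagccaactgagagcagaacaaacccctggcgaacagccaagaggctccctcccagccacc
Cavin2: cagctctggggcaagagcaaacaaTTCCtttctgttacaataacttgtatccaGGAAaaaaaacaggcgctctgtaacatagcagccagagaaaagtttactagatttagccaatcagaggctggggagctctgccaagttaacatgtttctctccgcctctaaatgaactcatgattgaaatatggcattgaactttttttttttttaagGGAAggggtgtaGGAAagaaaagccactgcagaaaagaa
The Cldn5 window held 0 matches, the Cav1 window 1 and the Cavin2 window 4, and the window of the other Cav1 start held 3. Cavin1 held 5 and Tjp1 held 3. At least 1 match stands in 93.4% of the 32851 promoter windows of this length, and the median window holds 3, so these counts are a description of the letters alone. The core of the SOX motif, ACAAT, read on both strands, was in the Cavin2 window 2 times and in none of the other 4 genes' windows, against 27.7% of all windows with at least 1.

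Over all endothelial-like cells, Plvap was lower and the claudin gene higher in the knockout library, while the VE-cadherin gene differed little. Fenestrae themselves were not measured. Plvap stood at 565 CPM in knockout and 957 CPM in control cells, a ratio of 0.591 (interval 0.542 to 0.643). Cldn5 stood at 795 CPM in knockout and 480 CPM in control cells, a ratio of 1.66 (1.53 to 1.79). Cdh5 stood at 1109 CPM in knockout and 1148 CPM in control cells, with a ratio of 0.966 and an interval of 0.906 to 1.03 that includes 1. Plvap was thus the only gene of the 9 at least 1.5-fold lower, where 15.2% of 10894 measured genes were, and Cldn5 the only gene at least 1.5-fold higher, where 11.9% were. These shares are near the background of the class. The median log2 ratio was 0.09 over the 9 genes and -0.02 over all measured genes.

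**Figure D1:**
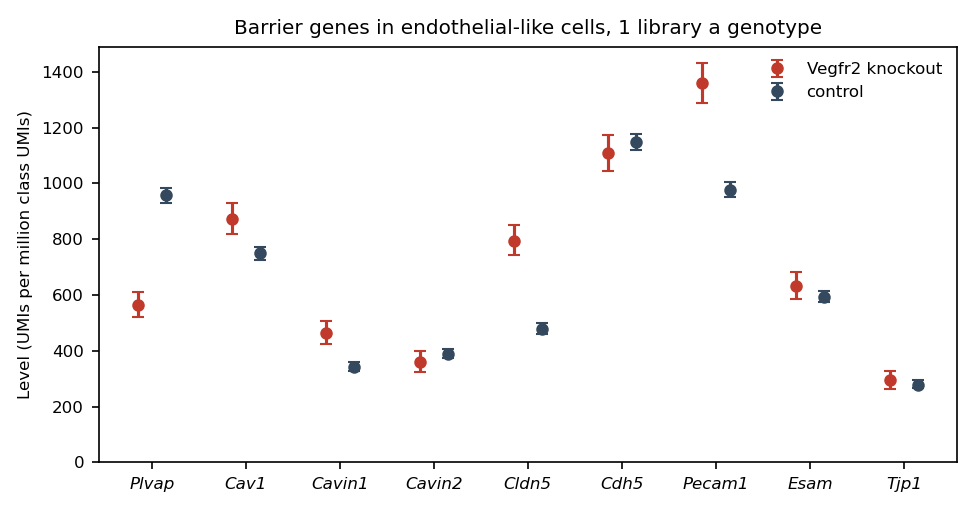
Level of each of the 9 genes in endothelial-like cells of the knockout library (left of each pair) and of the control library, in CPM with exact 95% counting intervals; each library is 1 value. Plvap is lower in the knockout library (565 CPM in knockout against 957 CPM in control cells) and Cldn5 higher (795 CPM in knockout against 480 CPM in control cells), while Cdh5 lies close in both.

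The remaining genes of the class lay between these. Cav1 was at 873 CPM in knockout and 749 CPM in control cells (ratio 1.16, interval 1.08 to 1.25), Cavin1 at 465 CPM in knockout and 344 CPM in control cells (1.35, 1.22 to 1.49) and Pecam1 at 1358 CPM in knockout and 978 CPM in control cells (1.39, 1.31 to 1.47). All 3 were higher in the knockout library by less than 1.5-fold. The intervals of Cavin2 (359 CPM in knockout, 389 CPM in control, ratio 0.924, interval 0.826 to 1.03), Esam (632 CPM in knockout and 594 CPM in control cells, 1.06, 0.977 to 1.16) and Tjp1 (294 CPM in knockout and 279 CPM in control cells, 1.05, 0.929 to 1.19) included 1.

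The level in the median cell gave the same order for the leading pair. For Plvap it was 353 CPM in knockout cells (quartiles 0 and 880) and 958 CPM in control cells (quartiles 377 and 1438). For Cldn5 it was 276 CPM in knockout cells (quartiles 0 and 799) and 173 CPM in control cells (quartiles 0 and 547). The quartile ranges of the libraries overlapped for both genes. The cell with the most UMIs of Cldn5 held 12.8% of them in the knockout library and 5.08% in the control library, and for Plvap 7.72% in the knockout and 2.13% in the control library.

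Since the libraries differed in depth, each cell was also thinned to 2000 UMIs, which left 108 knockout and 373 control cells and dropped 33 knockout and 32 control cells. Mcm4-led cells, a subcluster described below, made up 16 of the dropped knockout and 12 of the dropped control cells. Thinning thus left 7 knockout and 80 control Mcm4-led cells, which changed the mix of cells compared. A Plvap UMI was then present in 53.7% of knockout and 74.8% of control cells (71.6% of knockout and 87.4% of control cells unthinned). A Cldn5 UMI was present in 50.9% of knockout and 40.2% of control cells, whereas the unthinned shares were close, at 68.1% in knockout and 69.6% in control cells. In glia-like cells, which should lack these genes and had median depths of 8568 UMIs in the knockout and 12132 in the control library, the thinned shares were 0.955% in knockout and 1.13% in control cells for Plvap, and 1.27% in knockout and 0.565% in control cells for Cldn5. The endothelial shares thus stood far above those in glia. Thinned shares were also higher in the knockout library for Cav1 (78.7% against 69.7% in control), Cavin1 (57.4% against 45.6% in control) and Pecam1 (93.5% against 83.6% in control), and Cdh5 was in 90.7% of knockout and 87.9% of control cells. A thinned cell held a median of 6 of the 9 genes in either library, over a range of 3 to 9 in knockout and 1 to 9 in control cells.

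The class values mix vessel types, and these were unequally represented. Endothelial-like cells split into 7 subclusters, again without the 9 genes, named here by a leading gene. The arterial-like Gja5-led cells were 34 of 141 in the knockout library (24.1%) and 60 of 405 in the control library (14.8%). Venous-like cells formed an Ackr1-led subcluster, with 34 knockout (24.1%) and 49 control cells (12.1%), and a Sele-led subcluster with the stress genes Atf3 and Nr4a2 among its leaders, with 21 knockout (14.9%) and 31 control cells (7.65%). The sprouting-like Esm1-led cells were 17 in the knockout library (12.1%) and 111 in the control library (27.4%). A tip-like Pgf-led subcluster held 7 knockout and 40 control cells, and a cycling-like Ccna2-led subcluster held 5 knockout and 22 control cells, so their knockout values rest on few cells. An Mcm4-led subcluster held 23 knockout cells, at a low median of 1592 UMIs, and 92 control cells. Its leading genes included Mcm2, Mcm3 and Mcm6. The capillary marker list matched it best, but weakly and with none of its markers among the leading genes, so no vessel type is given for it here.

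Plvap and Cldn5 marked opposite ends of this range of vessel types in both libraries. Plvap, on the minus strand of chromosome 8 (71497765 to 71511752, ENSMUSG00000034845, GRCm38), was highest in Esm1-led cells, at 1664 CPM in the knockout and 1716 CPM in the control library. It was at 237 CPM in knockout and 255 CPM in control Gja5-led cells, so that Esm1-led over Gja5-led was 7.02-fold (5.31 to 9.36) in the knockout and 6.74-fold (5.79 to 7.88) in the control library. Cldn5, on the plus strand of chromosome 16 (18776847 to 18778262, ENSMUSG00000041378), ran the other way. It was at 1897 CPM in knockout and 1399 CPM in control Gja5-led cells, against 152 CPM in knockout and 146 CPM in control Esm1-led cells, which made the Gja5-led level 12.5-fold higher (7.61 to 21.95) in the knockout and 9.56-fold higher (8.13 to 11.3) in the control library.

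Between these ends the order was clearer in the deeper control library. In the control library Plvap followed the order Esm1-led, Ackr1-led (1127 CPM), Mcm4-led (984 CPM), Sele-led (852 CPM), Ccna2-led (688 CPM), Pgf-led (331 CPM) and Gja5-led. The intervals of 2 of the 6 neighbouring pairs overlapped there, against 5 of 6 in the knockout library. For Cldn5 the control order was Gja5-led, Pgf-led (967 CPM), Ccna2-led (395 CPM), Ackr1-led (293 CPM), Mcm4-led (267 CPM), Sele-led (242 CPM) and Esm1-led, again with 2 of 6 neighbours overlapping, against 5 of 6 in the knockout library.

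**Figure D2:**
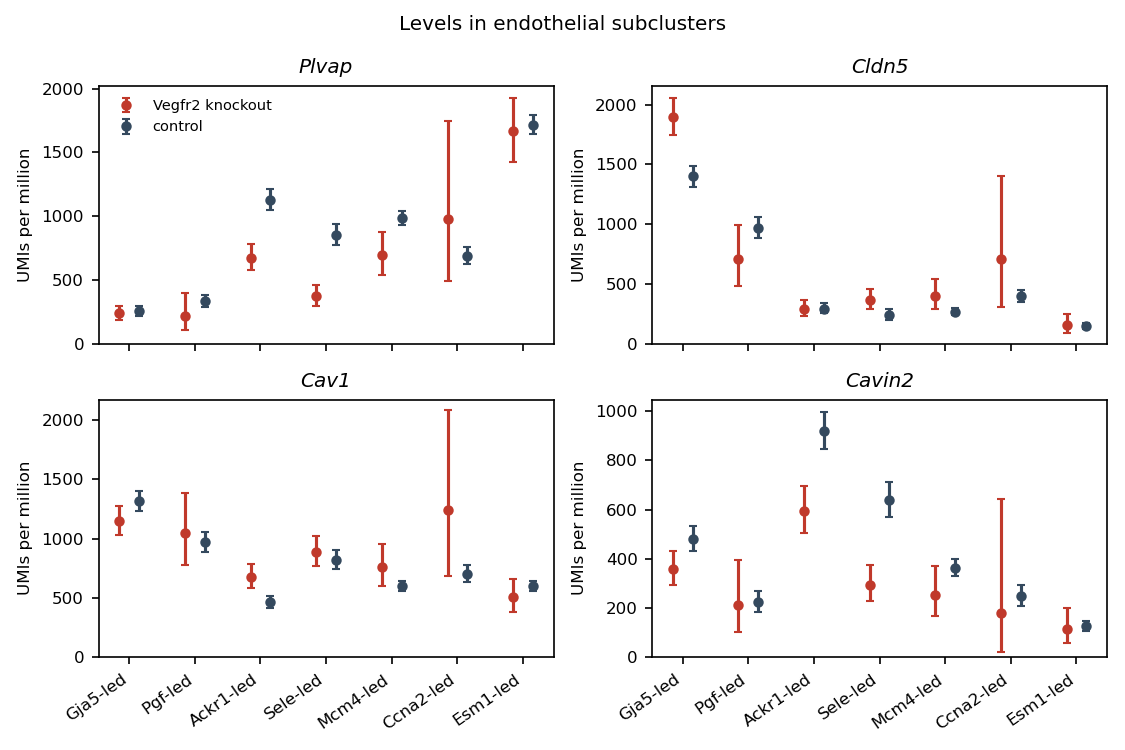
Level of Plvap, Cldn5, Cav1 and Cavin2 in each endothelial subcluster of the knockout library and of the control library, in CPM of the subcluster with exact 95% counting intervals. Plvap is highest in Esm1-led cells and Cldn5 in Gja5-led cells of both libraries.

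Within vessel types, Plvap was lower by more than 1.5-fold in both venous-like subclusters of the knockout library. In Ackr1-led cells it was at 672 CPM in the knockout and 1127 CPM in the control library (ratio 0.596, interval 0.502 to 0.705), and in Sele-led cells at 370 CPM in knockout and 852 CPM in control cells (0.434, 0.338 to 0.551). In Mcm4-led cells it was at 693 CPM in knockout and 984 CPM in control cells (0.705, 0.546 to 0.896), and in the few Pgf-led cells at 214 CPM in knockout and 331 CPM in control cells (0.647, 0.305 to 1.22), on 10 knockout UMIs. The few Ccna2-led cells ran the other way, at 978 CPM in knockout and 688 CPM in control cells (1.42, 0.704 to 2.57) on 11 knockout UMIs. The ratio of summed UMIs was near 1 at both ends of the range: 0.970 (0.826 to 1.13) in Esm1-led and 0.931 (0.700 to 1.23) in Gja5-led cells. In knockout Esm1-led cells, however, the cell with the most Plvap UMIs held 26.3% of them. The median Esm1-led cell stood at 1308 CPM in knockout and 1501 CPM in control. After thinning, a Plvap UMI was in 76.9% of 13 knockout and 92.4% of 105 control Esm1-led cells. When the knockout subclusters were weighted by their shares of UMIs in the control library, the class ratio of Plvap was 0.836 in place of 0.591 and no gene remained past 1.5-fold.

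Cldn5 behaved otherwise. It was higher in knockout than in control Gja5-led cells (1897 CPM in knockout against 1399 CPM in control cells, ratio 1.36, interval 1.22 to 1.503) and in Sele-led cells (365 CPM in knockout against 242 CPM in control cells, 1.51, 1.12 to 2.02), and lay near 1 in Ackr1-led cells (289 CPM in knockout against 293 CPM in control cells, 0.988, 0.744 to 1.30) and Esm1-led cells (152 CPM in knockout against 146 CPM in control cells, 1.04, 0.581 to 1.74). The few Pgf-led cells were the exception, at 705 CPM in knockout and 967 CPM in control cells (0.729, 0.497 to 1.04). In Ccna2-led cells Cldn5 was at 711 CPM in knockout and 395 CPM in control cells (1.80, 0.768 to 3.61), on 8 knockout UMIs. Gja5-led cells supplied 69.7% of the Cldn5 UMIs of the class in the knockout library and 40.1% in the control library. With the control weights, the class ratio of Cldn5 was 1.25 in place of 1.66. Esm1-led cells supplied 29.4% of the Plvap UMIs in the knockout and 40.4% in the control library, and Ackr1-led cells 29.2% in the knockout and 13.8% in the control library.

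Plvap UMIs per Cldn5 UMI put both genes into a single quantity that does not depend on the class total. It was 0.711 (0.639 to 0.791) in knockout and 1.995 (1.90 to 2.09) in control endothelial-like cells. By vessel type it was 10.9 in knockout and 11.7 in control Esm1-led cells, 2.32 in knockout and 3.84 in control Ackr1-led cells, and 1.01 in knockout and 3.52 in control Sele-led cells. It was 1.73 in knockout and 3.69 in control Mcm4-led cells, and 0.125 in knockout and 0.182 in control Gja5-led cells. The knockout value was the lower in each of these 5 subclusters. The intervals of the libraries overlapped in Esm1-led and Gja5-led cells and did not overlap in the other 3.

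The same cells could carry both genes. Among thinned cells, 34.3% of knockout (37 of 108) and 49.6% of control cells (185 of 373) held Plvap without Cldn5, and 31.5% of knockout (34) and 15.01% of control cells (56) held Cldn5 without Plvap. Both were seen in 19.4% of knockout and 25.2% of control cells, and neither in 14.8% of knockout and 10.2% of control cells. Without thinning, cells with both were the most frequent, at 47.5% of knockout and 59.8% of control cells, so the share with both depends on depth. In thinned Gja5-led cells Cldn5 alone was seen in 58.1% of 31 knockout and 58.5% of 53 control cells. In thinned Ackr1-led cells it was seen alone in 16.1% of 31 knockout and 2.13% of 47 control cells. These shares rest on 5 knockout cells and 1 control cell, and their intervals overlap (5.45% to 33.7% and 0.054% to 11.3%).

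**Figure D3:**
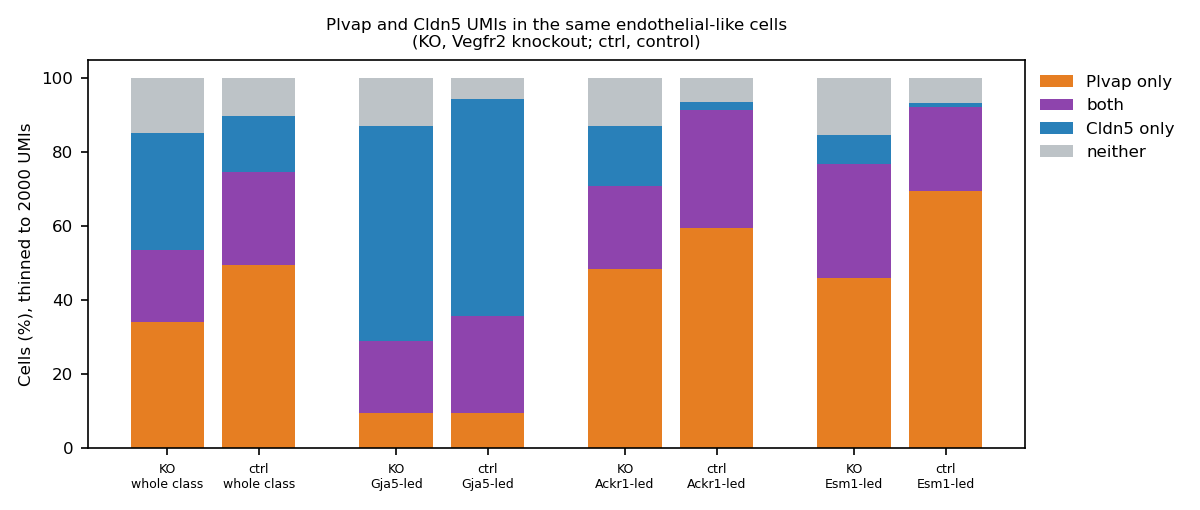
Share of cells with Plvap only, Cldn5 only, both or neither after thinning to 2000 UMIs, for all endothelial-like cells and for 3 subclusters, knockout left of control. The share with Cldn5 only is 31.5% in knockout and 15.01% in control endothelial-like cells, and about equal in Gja5-led cells (58.1% in knockout, 58.5% in control).

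The caveolar genes did not follow a single pattern. Cav1, encoding caveolin-1, the main structural protein of caveolae, lies on the plus strand of chromosome 6 (17306335 to 17341452). Like Cldn5 it was high in arterial-like cells, at 1150 CPM in knockout and 1316 CPM in control Gja5-led cells (ratio 0.874, interval 0.771 to 0.988). It was lower in Esm1-led cells, at 504 CPM in knockout and 597 CPM in control cells (0.844), and in Ackr1-led cells, at 675 CPM in knockout and 462 CPM in control cells (1.46, 1.20 to 1.77). The Cav1 ratio was thus below 1 in the arterial-like and above 1 in the Ackr1-led venous-like cells, and the difference was not tested.

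Cavin1, on the minus strand of chromosome 11 (100956733 to 100970887), encodes the cavin needed to form the caveolar coat. It was at 598 CPM in knockout and 534 CPM in control Gja5-led cells (1.12), at 444 CPM in knockout and 278 CPM in control Ackr1-led cells (1.59, 1.25 to 2.03), and at 171 CPM in knockout and 207 CPM in control Esm1-led cells (0.826). Cavin2, on the plus strand of chromosome 1 (51289126 to 51302960), encodes a cavin tied in mice to caveolae of some but not all endothelia, and it stood apart. It was highest in Ackr1-led cells, at 594 CPM in knockout and 920 CPM in control cells (0.646, 0.537 to 0.773). It was lower in the knockout library in Sele-led cells too, at 293 CPM in knockout against 638 CPM in control cells (0.460, 0.346 to 0.602), and in Gja5-led cells, at 357 CPM in knockout against 480 CPM in control cells (0.744, 0.595 to 0.925). Cavin2 was lowest in Esm1-led cells, at 114 CPM in the knockout and 124 CPM in the control library. With the control weights its class ratio was 0.689 in place of 0.924. In knockout Ackr1-led cells, therefore, Cav1 and Cavin1 were higher than in control cells while Cavin2 was lower, as Plvap was.

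Some mural markers moved with the knockout venous-like cells. Smooth muscle markers summed to 359 CPM in knockout and 40.7 CPM in control Ackr1-led cells, and pericyte markers to 726 CPM in knockout and 40.0 CPM in control Sele-led cells. Mural cells also express Cav1, Cavin1 and Esam. Without cells holding at least 5 UMIs of markers of other types, which left 29 of 34 knockout and 48 of 49 control Ackr1-led cells, the ratios there were 1.38 for Cav1, 1.46 for Cavin1, 0.632 for Cavin2 and 0.655 for Plvap. The same step left 17 of 21 knockout and 30 of 31 control Sele-led cells, where Cav1 was then 0.896 in place of 1.08, Cavin1 1.07 in place of 1.38, Plvap 0.552 in place of 0.434 and Cldn5 1.24 in place of 1.51. Glial markers summed to 342 CPM in knockout and 1978 CPM in control Pgf-led cells, and their part in the values of that subcluster was not tested.

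At the junctions, Cdh5, on the plus strand of chromosome 8 (104101625 to 104144511), encodes VE-cadherin, the adhesive core of endothelial adherens junctions, and varied little over vessel types. Its subcluster levels spanned 1.42-fold (1.11 to 1.83) in the knockout library, over the 5 subclusters with at least 10 cells, and 1.67-fold (1.502 to 1.87) over all 7 in the control library. It was at 1081 CPM in knockout and 1470 CPM in control Gja5-led cells (0.736, 0.649 to 0.833), but at 1119 CPM in knockout and 1109 CPM in control Ackr1-led cells (1.01), 1190 CPM in knockout and 1023 CPM in control Sele-led cells (1.16) and 1094 CPM in knockout and 1213 CPM in control Esm1-led cells (0.902). In arterial-like cells, then, the summed level of the VE-cadherin gene was lower and that of the claudin gene higher in the knockout library. The thinned share of these cells with a Cldn5 UMI was not higher, at 77.4% in knockout and 84.9% in control.

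Pecam1, on the minus strand of chromosome 11 (106654217 to 106750628), encodes an adhesion molecule through which leukocytes pass the endothelium. It was higher in knockout than in control cells of both venous-like subclusters, at 1243 CPM in knockout against 769 CPM in control cells in Ackr1-led (1.62, 1.40 to 1.87) and 1515 CPM in knockout against 981 CPM in control cells in Sele-led cells (1.54, 1.34 to 1.78). In Gja5-led cells it was at 1591 CPM in knockout against 1301 CPM in control cells (1.22, 1.09 to 1.37), and in Esm1-led cells at 1208 CPM in knockout against 1189 CPM in control cells (1.02). Esam, on the plus strand of chromosome 9 (37528078 to 37538319), encodes an immunoglobulin-type molecule of endothelial tight junctions. It was nearly level, at 714 CPM in knockout and 628 CPM in control Gja5-led cells (1.14), 591 CPM in knockout and 472 CPM in control Ackr1-led cells (1.25, 1.02 to 1.53) and 704 CPM in knockout and 742 CPM in control Esm1-led cells (0.949). The intervals of all 6 neighbouring pairs overlapped for Esam in both libraries.

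Tjp1, on the minus strand of chromosome 7 (65296165 to 65527781), encodes the scaffold ZO-1. It was at 425 CPM in knockout and 261 CPM in control Ackr1-led cells (1.63, 1.27 to 2.09) but at 181 CPM in knockout and 296 CPM in control Esm1-led cells (0.610, 0.363 to 0.967), where the knockout value rests on 19 UMIs. In Gja5-led cells it was at 338 CPM in knockout and 379 CPM in control cells (0.891). Its class ratio near 1 thus joined subclusters on either side of 1.

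Counted by vessel type, Ackr1-led knockout cells had 2 of the 9 genes past 1.5-fold on the low side, Plvap and Cavin2, against 16.0% of measured genes, and 3 on the high side, Cavin1, Pecam1 and Tjp1, against 16.7%. In Sele-led cells 2 were lower, Plvap and Cavin2, against 23.0%, and 2 higher, Cldn5 and Pecam1, against 16.8%. No gene of the 9 passed 1.5-fold in Gja5-led cells, against 13.3% lower and 13.3% higher. In Esm1-led cells only Tjp1 did, lower, against 23.4% lower and 17.9% higher. In the Mcm4-led cells 1 was lower, Tjp1, against 27.0%, and 2 higher, Cavin1 and Cldn5, against 18.4%. The counts in the venous-like cells depended on how those cells were drawn. In Ackr1-led cells at the coarser subcluster resolution of 0.3, Cavin1 was 1.46 and Tjp1 1.25, and at the finer resolution of 0.8 Plvap was 0.704, Cavin1 1.40 and Cavin2 0.846, all short of 1.5-fold, while Pecam1 was 1.57 and 1.60. Without cells holding markers of other types, Cavin1 in Ackr1-led cells was 1.46, and in Sele-led cells Cldn5 was 1.24 and Pecam1 1.48, so that no gene stayed past 1.5-fold on the high side in Sele-led cells. Counts of 1 to 3 among 9 genes are not far from these background shares and are given as a description.

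**Figure D4:**
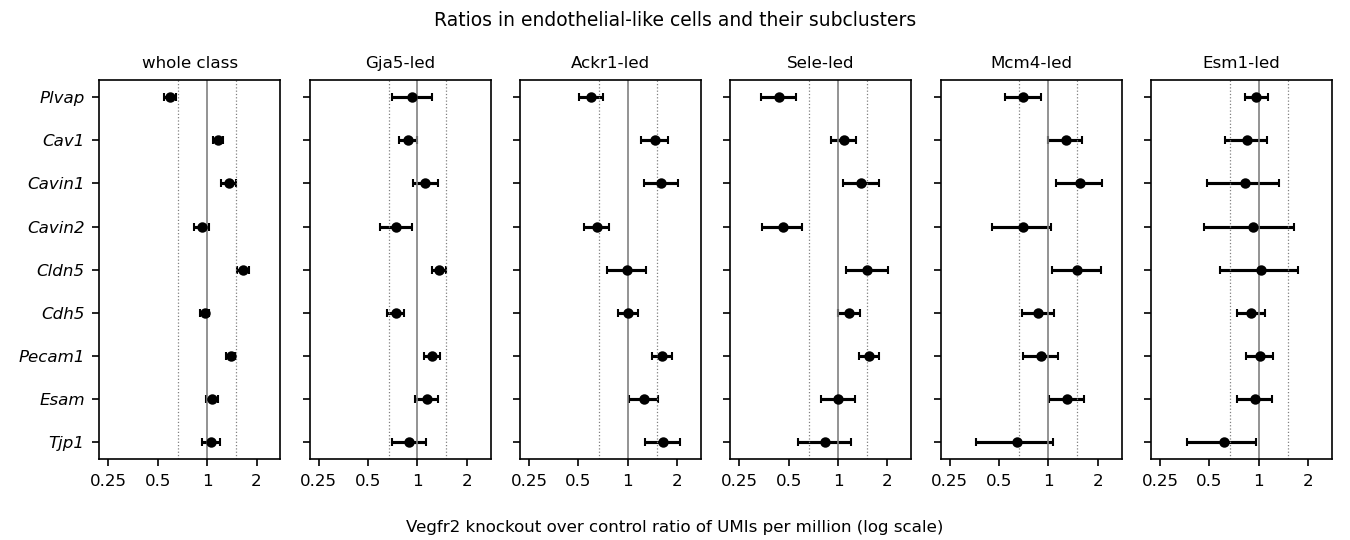
Knockout over control ratio of each gene in endothelial-like cells and in their subclusters, on a log axis with exact 95% counting intervals; dotted lines mark 1.5-fold either way. Plvap and Cavin2 lie below 1 in Ackr1-led and Sele-led cells, Pecam1 above 1 in both, and Plvap near 1 in Esm1-led and Gja5-led cells.

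Outside the endothelium, 4 of the genes were nearly absent and the others were seen in further cell types. Plvap, Cavin2, Cldn5 and Cdh5 reached at most 14.8 CPM, 12.4 CPM, 4.55 CPM and 9.09 CPM in any other named class of the knockout library, and at most 11.6 CPM, 4.75 CPM, 2.21 CPM and 14.2 CPM in the control library, each on 16 UMIs or fewer. Pecam1 was seen in B-like cells, at 175 CPM in knockout and 95.1 CPM in control cells (23 cells each), and in T or NK-like cells at 43.7 CPM in 32 knockout and 33.1 CPM in 19 control cells. Tjp1 was next highest in glia-like cells, at 105 CPM in knockout and 91.8 CPM in control cells. Its endothelial level was 2.81-fold that of glia in the knockout and 3.04-fold in the control library.

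Mural cells, which wrap the vessels, carried the caveolar genes and Esam. Cavin1 was higher in smooth muscle-like cells than in any other class, at 756 CPM in knockout and 588 CPM in control cells (1.29, 1.17 to 1.41), which exceeded the endothelial level in each library. Cav1 was at 288 CPM in knockout and 277 CPM in control smooth muscle-like cells, and Esam at 270 CPM in knockout and 227 CPM in control cells (1.19). Cavin2 did not accompany them, at 2.22 CPM in knockout and 0.846 CPM in control cells, 2 UMIs in each. None of the 4 genes measured in this class passed 1.5-fold, against 12.6% of 9897 genes lower and 12.6% higher.

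In pericyte-like cells Cav1 differed more than any of the 9 genes did in endothelial-like cells. It was at 247 CPM in 54 knockout cells and 77.3 CPM in 116 control cells, a ratio of 3.20 (2.37 to 4.31) on 100 knockout and 87 control UMIs, and after thinning 23.1% of knockout and 11.4% of control cells had a Cav1 UMI. Of the 4 genes measured there, Cav1 was the only gene at least 1.5-fold higher, against 13.9% of 8152 genes, and none was lower, against 18.3%. Cav2, which encodes the caveolin that pairs with caveolin-1, was at 91.5 CPM in knockout and 28.4 CPM in control cells (3.22, 1.95 to 5.33), Cavin3 at 250 CPM in knockout and 154 CPM in control cells (1.62) and Cavin1 at 339 CPM in knockout and 247 CPM in control cells (1.37). Esam was at 190 CPM in knockout and 142 CPM in control cells (1.34).

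Smooth muscle markers moved with this result. Acta2 was at 2190 CPM in knockout and 96.0 CPM in control pericyte-like cells and Tagln at 1520 CPM in knockout and 36.4 CPM in control cells, whereas Myh11 was at 168 CPM in knockout and 190 CPM in control cells and the pericyte gene Rgs5 at 16940 CPM in knockout and 17411 CPM in control cells. The whole smooth muscle list summed to 5746 CPM in knockout and 718 CPM in control cells. Without cells that held at least 5 UMIs of Acta2, Tagln and Myh11, the Cav1 ratio was 3.05, on 30 knockout and 91 control cells. Over 13 other settings, that step included, it lay between 2.31 and 6.59, the highest in Y-positive cells alone, 23 in the knockout and 8 in the control library with 3 control UMIs.

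Glia-like cells had a lower level of Cav1, at 97.3 CPM in knockout and 48.4 CPM in control cells (2.01, 1.69 to 2.40). Most of it came from the myelinating glia cluster with Mag and Mbp among its leading genes, which held 185 of the knockout and 130 of the control cells. There Cav1 was at 153 CPM in knockout and 115 CPM in control cells (1.33, 1.11 to 1.59), and in the Scn7a-led glia cluster at 2.08 CPM in knockout and 3.11 CPM in control cells. Low levels of some other genes ran the other way in glia-like cells, but not that of Cldn5. It was at 2.94 CPM in knockout and 1.30 CPM in control cells (2.27, 0.721 to 7.75). Plvap was at 1.31 CPM in knockout and 4.54 CPM in control cells (0.288, on 4 knockout and 21 control UMIs). Pecam1 was at 2.61 CPM in knockout and 4.10 CPM in control cells (0.637, 0.241 to 1.52). Esam was at 2.29 CPM in knockout and 3.46 CPM in control cells (0.662, 0.230 to 1.70). The intervals of Cldn5, Pecam1 and Esam include 1, and the source of these UMIs was not tested. The Cav1 class ratio thus combines unequal shares of these clusters with a smaller difference within the myelinating cluster.

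**Figure D5:**
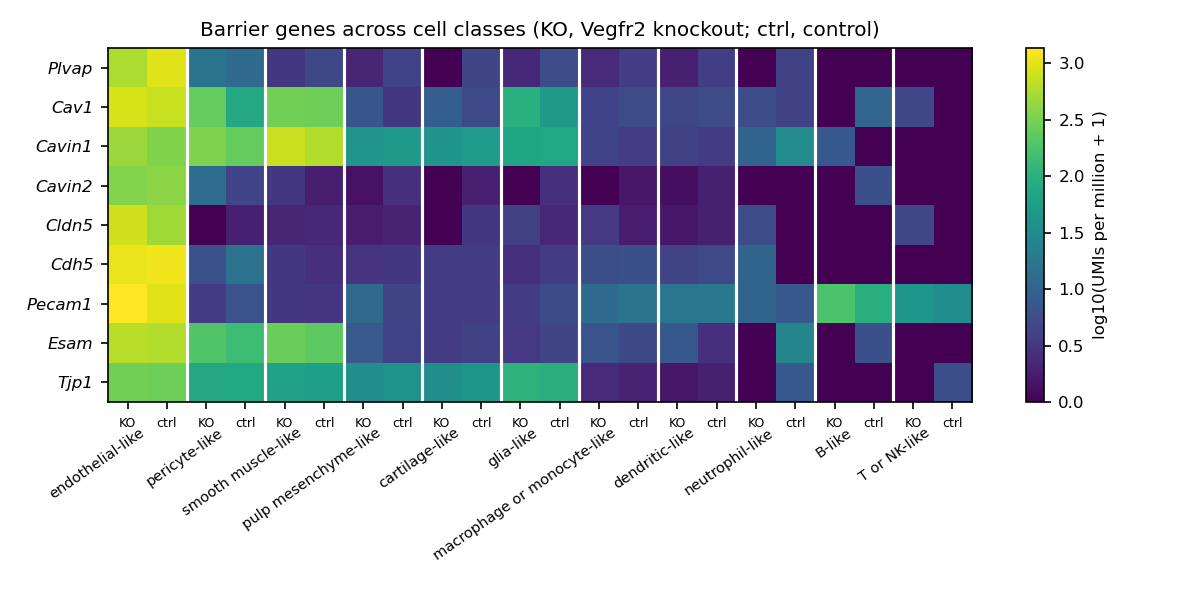
Level of the 9 genes in each named cell class of the knockout library and of the control library, as log10(CPM + 1) on a colour scale. Plvap, Cavin2, Cldn5 and Cdh5 stand out in endothelial-like cells, and Cav1, Cavin1 and Esam also in smooth muscle-like and pericyte-like cells.

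Other genes of the same structures were counted in endothelial-like cells from lists chosen with earlier results of these data known. Of the caveolar genes, 8 of 11 had at least 20 UMIs, 0 were at least 1.5-fold lower and 3 at least 1.5-fold higher in the knockout library, with a median log2 ratio of 0.38. These 3 were Scarb1, a lipoprotein receptor found in caveolae, at 305 CPM in knockout and 157 CPM in control cells (1.95), and the membrane-shaping ATPase genes Ehd1 at 91.0 CPM in knockout and 48.3 CPM in control cells (1.88) and Ehd4 at 229 CPM in knockout and 143 CPM in control cells (1.59). Among the lowest ratios were 0.884 for Pacsin2 and 0.932 for Cavin3, and Cav2 was at 270 CPM in knockout and 189 CPM in control cells (1.43).

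Of the tight junction genes, 9 of 16 were measured, 2 of them at least 1.5-fold lower and 3 higher, with a median log2 ratio of 0.29. Jam3, an adhesion molecule of the junction, was at 52.2 CPM in knockout and 78.4 CPM in control cells (0.665). Cldn11 had a ratio of 0.383 on 4 knockout and 52 control UMIs, with an interval of 0.101 to 1.04 that includes 1. Among those higher, Cldn12 had a ratio of 1.74 on 7 knockout and 20 control UMIs, with an interval of 0.623 to 4.29 that includes 1. Cldn15 was at 10.4 CPM in knockout and 1.71 CPM in control cells (6.09) on only 11 knockout and 9 control UMIs. F11r, encoding JAM-A, had the third lowest ratio, 0.840.

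Of the genes of adherens junctions and the lateral border, 12 of 13 were measured, with 2 lower, 1 higher and a median log2 ratio of -0.03. The desmosomal and adherens plaque gene Jup, encoding plakoglobin, was at 141 CPM in knockout and 248 CPM in control cells (0.569), Plekha7 had a ratio of 0.554, Icam2 of 0.757, Pvr of 1.57, Vcl of 1.48 and Afdn of 1.37. The Plekha7 ratio rests on 2 knockout and 18 control UMIs, and its interval of 0.062 to 2.31 includes 1. Of genes that signal to the barrier, 14 of 16 were measured, with 0 lower, 2 higher and a median of -0.04. S1pr1, the sphingosine-1-phosphate receptor that tightens junctions, was at 458 CPM in knockout and 248 CPM in control cells (1.85), and Ptprb, the phosphatase VE-PTP that associates with VE-cadherin and Tie2, at 1797 CPM in knockout and 1117 CPM in control cells (1.61). Arhgap29 had a ratio of 1.17, and the lowest were Tie1 at 302 CPM in knockout and 403 CPM in control cells (0.749), Rap1a at 0.756 and Tek at 0.839. The shares past 1.5-fold in the whole class, 15.2% lower and 11.9% higher, are the background for these counts.

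Genes most like Plvap, Cldn5, Cav1 and Cdh5 were ranked by Pearson's r of log2(CPM + 10) over 33 values, the endothelial subclusters of both libraries and the other named classes with at least 20 cells, among 11799 genes. These values share 2 libraries and most of their contrast is endothelium against the rest, so r is a description. For Plvap they were Emcn (0.990), Shank3, Egfl7, Flt1 and Arhgef15 (0.974). For Cldn5 they were Hoxd8 (0.983), Sox17, Bcl6b, Cdh5 and Adgrl4 (0.964), for Cav1 Cav2 (0.966), Esam, 4931406P16Rik, Dock6 and Ehd2 (0.944), and for Cdh5 Rasip1 (0.993), Adgrl4, C130074G19Rik, Cd34 and Myct1 (0.989). The 14 endothelial subcluster values alone were looked at after the values were seen. They are the same 7 subclusters in each of the 2 libraries, so they are not 14 separate values. Among them are subclusters of only 7 knockout Pgf-led and 5 knockout Ccna2-led cells. Over these 14 values, r of Plvap was negative with all 8 other genes, though close to 0 for Esam. It was -0.878 with Cavin1, -0.841 with Cldn5 and -0.756 with Cav1, -0.531 with Cdh5, -0.483 with Tjp1 and -0.450 with Pecam1, and -0.193 with Cavin2 and -0.041 with Esam. Between Cav1 and Cldn5 it was 0.844.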

How the data were processed

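The 9 genes and the wider lists were chosen with earlier results of these data known. The deposited values are raw UMI counts per gene and barcode, written per the file headers by Cell Ranger 6.0.1 for the knockout and 5.0.0 for the control library; version 6.0.1 and mm10 stand in the submitters' processing notes. Barcodes were kept with at least 500 genes, 1000 UMIs and at most 10% mitochondrial UMIs, which 811 knockout and 1053 control barcodes exceeded. Scrublet calls were removed (4 knockout and 20 control, 0.598% of 4012, below the expected rate of 0.8% per 1000 cells, so doublets may remain). The libraries shared 3 barcodes, 2 among kept cells. Cells were clustered together with scanpy 1.11.5 under Python 3.11.15 (2000 variable genes, 30 components, 15 neighbours, Leiden resolution 1; endothelial subclusters at 0.5), without batch integration and without the 9 genes, the wider lists and Kdr. A class name needed at least 3 fixed markers in at least 10% of cells. UMIs were summed per class and library, and ratios carry exact conditional Poisson intervals, shares Clopper-Pearson intervals (scipy 1.17.1). A gene counted as measured where its UMIs in the class came to 20 or more with the libraries added. Text names all 9 genes and, of each wider list, the 3 highest and 3 lowest ratios and any past 1.5-fold, except for some genes that are not reported here. The scripts were tested on simulated data. Gene coordinates are those of the GENCODE annotation of GRCm38. Cd99 was not analysed here. Reads of Plvap, Cav1, Cavin2 and Cdh5 lie opposite another annotated gene on the other strand.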

Additional observations from a re-analysis of the deposited data

Results flagged for a closer look

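A gene was flagged where its interval lay above 1 in an endothelial subcluster and below 1 in another. Only subclusters with at least 10 cells in each library were used. Intervals that exclude 1 are thus part of the rule, and the highest and lowest such ratios are given. By this rule the knockout over control ratio of Cav1 lay on opposite sides of 1 in 2 endothelial subclusters. It was 1.46 in Ackr1-led venous-like cells and 0.874 in Gja5-led arterial-like cells, and the first divided by the second is 1.67. Tjp1 differed in the same way, at 1.63 in Ackr1-led and 0.610 in Esm1-led sprouting-like cells, a ratio of ratios of 2.67. With 1 library a genotype neither difference was tested. Ackr1-led knockout cells also carried more smooth muscle marker UMIs, at 359 CPM against 40.7 CPM in control cells. Without the cells holding markers of other types the Ackr1-led ratios were 1.38 for Cav1 and 1.54 for Tjp1. At subcluster resolutions of 0.3 and 0.8 they were 1.26 and 1.49 for Cav1 and 1.25 and 1.56 for Tjp1.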

How the results depend on the processing

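Of 17 other settings of the endothelial-like class, 3 (resolution 0.5, the genes used for clustering, no filter) left every ratio unchanged and check nothing. Over the other 14, Plvap stayed below 1 (0.487 to 0.836) and Cldn5 above 1 (1.25 to 2.04), and no direction past 1.5-fold reversed. Weighting knockout subclusters as in the control library gave ratios of 0.836 for Plvap and 1.25 for Cldn5, with 0 genes lower and 0 higher past 1.5-fold. Thinning to 2000 UMIs gave 1.46 for Cldn5, 0 genes higher and a median log2 ratio of 0.22, and giving each cell equal weight a median of 0.25. Clustering each library on its own gave 0.516 for Plvap, 1.45 for Cldn5, 0 genes higher and a median of -0.076. In Y-positive cells (42 knockout, 70 control) Plvap was 0.487, Cldn5 2.04, the genes higher 2 and the median 0.29, and in Xist-positive cells (67 and 272) Plvap was 0.537. Plvap was 0.661 without cells holding other types' markers, and 0.510 without the Mcm4-, Ccna2- and Pgf-led subclusters, a setting added after the data were seen. The cause of these shifts was not tested. The ratios of Cdh5, Cavin2, Esam and Tjp1 lay on either side of 1 across settings. At subcluster resolution 0.3 Cldn5 in Ackr1-led cells was 1.31, and at 0.8 Cldn5 in Esm1-led cells was 0.366 on 3 knockout UMIs. Pericyte-like cells were not found at resolution 0.5, so that setting gives no value. Few knockout cells limit every subcluster value. No paired analysis was possible because each genotype has 1 library.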
